A study of Mus musculus with 14 samples.

Results

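Genes of glucose uptake, glycolysis and lactate handling were followed in mouse brown adipose tissue (BAT). A list of 34 gene symbols gave the members, which were chosen by name and not by their measured values. The list matched 35 of the 55471 genes in the count table, because Aldoa has a second identifier (ENSMUSG00000114515) with 82 counts in all libraries together. A filter on low counts left 33 members for testing, among 15949 genes. The other 2 were the second Aldoa identifier and Hkdc1, a hexokinase-like gene, which had 0 counts in all 14 libraries and 336.2 M gene counts (M, 1e6), which allows a level of up to 0.00892 counts per M (CPM).

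Brown fat burns fuel to make heat, and it takes up large amounts of glucose when it is activated by cold. Glucose enters through GLUT transporters, is trapped by hexokinase, is committed to glycolysis by phosphofructokinase and is split and oxidised to pyruvate. Lactate dehydrogenase converts pyruvate to lactate and back, and monocarboxylate transporters carry lactate across the cell membrane. Several steps are catalysed by alternative isoenzymes encoded by separate genes, so that a tissue can change the isoenzyme as well as the amount.

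The study compared mice that lack CLSTN3B specifically in adipocytes (AdC3KO) with wild-type mice (WT). All were males of 10 weeks that had spent 2 weeks at 30 °C, which is thermoneutral for a mouse, and some of each genotype were then kept at 4 °C for 6 h. There were 4 AdC3KO and 4 WT libraries at 4 °C and 3 AdC3KO and 3 WT libraries at 30 °C. The labels do not name the Cre driver, nor whether every library came from its own mouse; the p-values reflect only how these libraries varied, which may be technical. In bulk tissue, fewer cells of a type and less RNA per cell cannot be told apart.

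Gene counts summed to 20.3 to 29.0 M per library at 4 °C and 19.9 to 26.3 M at 30 °C. Clstn3, the locus of the knockout, was at 65.8 CPM in AdC3KO against 1110 CPM in WT at 4 °C, and at 15.8 CPM in AdC3KO against 207 CPM in WT at 30 °C (group means). All 12 brown adipocyte markers were detected in every library. Skeletal muscle transcripts, a list of 16 genes, summed to 46.8 to 599.7 CPM, and their mean log2 CPM was above 0 in 5 libraries, namely AdC3KO library 3 and WT library 2 at 4 °C and AdC3KO libraries 1 and 2 and WT library 3 at 30 °C. The muscle creatine kinase Ckm had 0 counts in 8 libraries. Myl1, another gene of this list, had 42.5 to 85.0 CPM in every library, those 8 included, and made up most of the low sums. Macrophage markers, a list of 10 genes, summed to 436.4 CPM in AdC3KO library 1 and 649.4 CPM in WT library 4 at 4 °C, against 257 to 342.7 CPM in the other libraries at 4 °C.

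Cold shifted most members, upward more often than downward. After 6 h at 4 °C, 20 of the 33 members tested rose in AdC3KO BAT, 8 of them at least 2-fold, and 6 fell, 2 of them at least 2-fold. The same contrast in WT BAT gave 17 members that rose, 6 of them at least 2-fold, and 5 that fell, 4 of them at least 2-fold. Among all genes tested, 31.0% were higher and 32.1% lower in the cold in AdC3KO, and 30.6% were higher and 30.8% lower in WT. The share of members that rose was thus above that of all genes, and the share that fell was below it. The median log2 fold change of the members was 0.39 in AdC3KO and 0.34 in WT, beside −0.06 and −0.03 over all genes. The 17 and 5 members called in WT were also called, in the same direction, in AdC3KO. Called in AdC3KO alone were Gpi1, Pkm and Bpgm, which rose, and Eno2, which fell, and no difference between the genotypes' cold responses passed the test. Libraries at 4 °C and 30 °C did not overlap for 25 of 33 members in AdC3KO, where 64.1% of all genes did not, and for 22 of 33 in WT, where 60.3% of all genes did not. Calls are from edgeR's quasi-likelihood test at an adjusted p below 0.05 over all genes, and log2 fold changes are 4 °C over 30 °C, with their standard error (SE). Without the 5 libraries with muscle transcripts, which leaves 1 AdC3KO library at 30 °C, 12 members rose and 6 fell in AdC3KO, where 19.5% of all genes rose and 19.3% fell. Upper-quartile scaling moved the median of all genes to −0.29 in AdC3KO and −0.27 in WT. Upper-quartile scaling left 15 members higher and 7 lower in AdC3KO (68.2% of called members higher, against 76.9%) and 12 higher and 9 lower in WT (57.1%, against 77.3%). Under that scaling 23.4% of all genes were called higher and 41.0% lower in AdC3KO, and 22.8% higher and 40.2% lower in WT. Of all genes called, 36.4% were thus higher in AdC3KO, against 49.1%, and 36.2% in WT, against 49.9%.

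**Figure D1:**
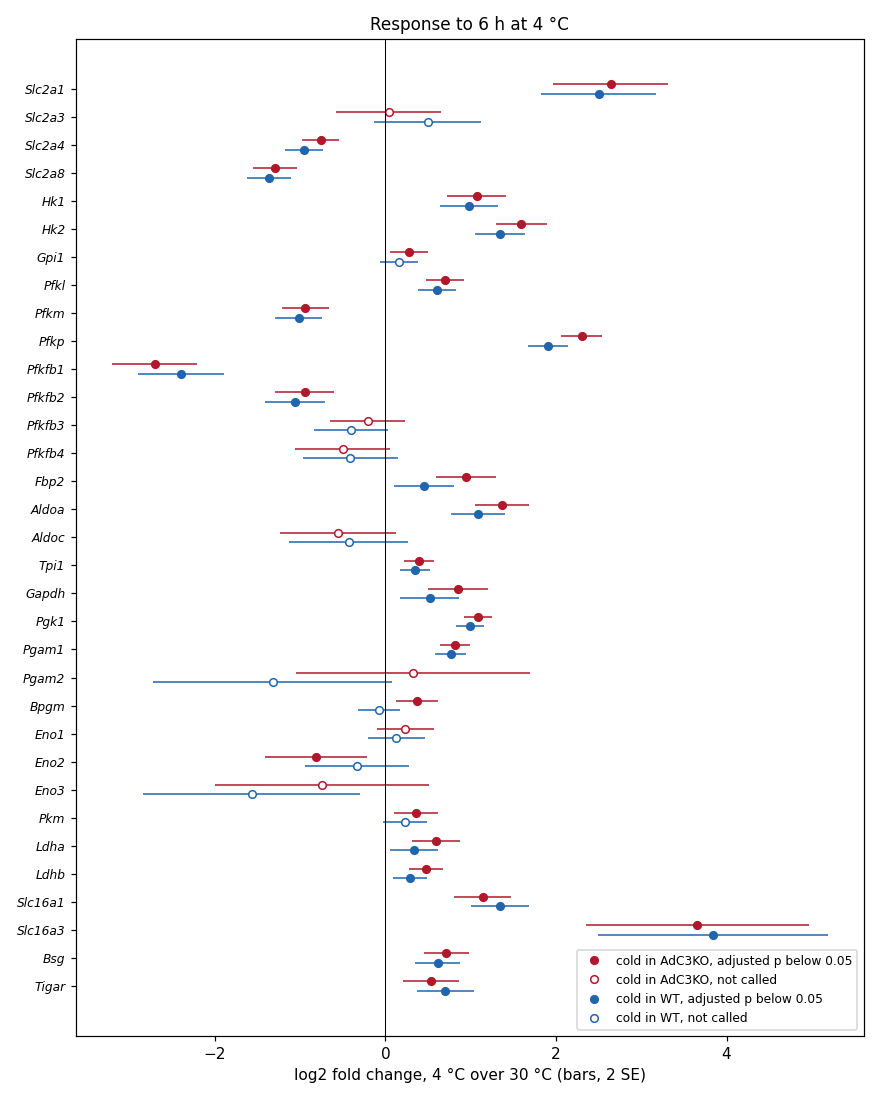
Log2 fold change of each tested member, 4 °C over 30 °C (horizontal axis), in AdC3KO (red, upper point) and WT (blue, lower point); bars span 2 SE to each side, filled points passed the test and open points did not. Slc16a3 and Slc2a1 lie farthest to the right, at 3.66 and 2.64 in AdC3KO, and Pfkfb1 farthest to the left, at −2.71.

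At the first step, transport into the cell, the transporters moved in opposite directions. Slc2a1 encodes GLUT1, the transporter of basal glucose uptake. It had 52.0, 31.5, 33.1 and 25.1 CPM in AdC3KO at 4 °C, against 5.76, 5.39 and 5.91 CPM in AdC3KO at 30 °C. In WT it had 35.0, 16.7, 22.0 and 45.9 CPM at 4 °C, against 5.09, 5.31 and 5.45 CPM at 30 °C. Every library in the cold was above every library at 30 °C, and the values were spread in the cold and tight at 30 °C. The log2 fold change was 2.64 in AdC3KO (SE 0.34, adjusted p = 1.52e-05) and 2.50 in WT (SE 0.34, adjusted p = 2.65e-05). The highest values at 4 °C came from the same AdC3KO library 1 and WT library 4 that had the highest macrophage sums. Without both libraries the log2 fold change was 2.42 in AdC3KO and 2.22 in WT.

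Slc2a4 encodes GLUT4, the transporter that insulin moves to the cell surface. It had 200.4, 204.8, 234.7 and 217 CPM in AdC3KO at 4 °C, against 335, 326 and 428 CPM in AdC3KO at 30 °C. In WT, 177.5, 174, 221 and 184 CPM at 4 °C stood against 377, 383 and 344 CPM at 30 °C. All libraries in the cold were lower than all at 30 °C. The log2 fold change was −0.76 in AdC3KO (SE 0.11, adjusted p = 1.66e-05) and −0.96 in WT (SE 0.11, adjusted p = 1.44e-06). Slc2a8 encodes the intracellular transporter GLUT8. Slc2a8 had 7.27, 7.88, 8.80 and 6.83 CPM in AdC3KO at 4 °C, against 19.7, 19.3 and 17.5 CPM in AdC3KO at 30 °C. In WT, Slc2a8 had 6.42, 8.28, 9.50 and 7.99 CPM at 4 °C, against 20, 20.1 and 22.0 CPM at 30 °C. The groups did not overlap. Its log2 fold change was −1.29 in AdC3KO (adjusted p = 2.80e-07) and −1.36 in WT (adjusted p = 1.69e-07). Slc2a3, the GLUT3 transporter best known from neurons, stayed between 2.29 and 5.66 CPM in all libraries and did not pass the test.

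Hexokinase, which traps glucose as its phosphate, rose in both forms measured. Hk2, the insulin-regulated form of muscle and fat, had 572, 741, 697 and 508 CPM in AdC3KO at 4 °C, against 218, 168 and 239.8 CPM in AdC3KO at 30 °C. WT libraries had 569, 516, 509 and 469 CPM at 4 °C, against 215, 219 and 178 CPM at 30 °C. The lowest library in the cold was above the highest at 30 °C in each genotype, and the log2 fold change was 1.59 in AdC3KO (SE 0.15, adjusted p = 1.27e-07) and 1.34 in WT (SE 0.15, adjusted p = 8.78e-07). Hk1 is the form present in most tissues. Hk1 had 54.7, 49.5, 54.3 and 46.6 CPM in AdC3KO at 4 °C, against 27.7, 20.5 and 25.0 CPM in AdC3KO at 30 °C. In WT, Hk1 had 35.0, 48.1, 63.4 and 60.0 CPM at 4 °C, against 29.6, 26.4 and 22.6 CPM at 30 °C. Every library at 4 °C was above every library at 30 °C of its genotype. Its log2 fold change was 1.07 in AdC3KO (adjusted p = 6.63e-05) and 0.98 in WT (adjusted p = 0.000157).

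**Figure D2:**
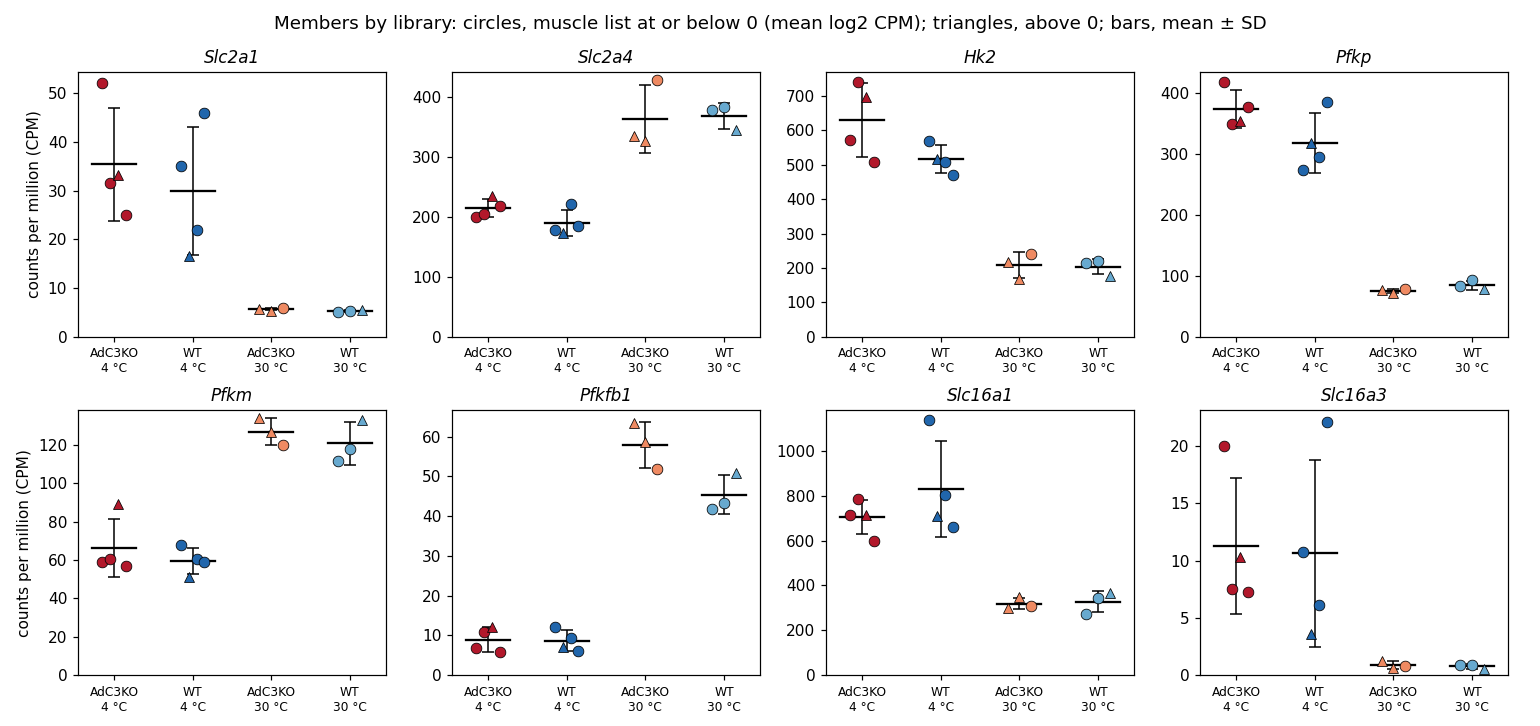
Level in CPM (vertical axes, from 0) of 8 members in each library, by group; bars give the mean ± SD, and triangles mark the 5 libraries whose skeletal muscle list had a mean log2 CPM above 0. Slc2a1, Hk2, Pfkp, Slc16a1 and Slc16a3 are higher in every library at 4 °C than at 30 °C, and Slc2a4, Pfkm and Pfkfb1 are lower in every one.

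Phosphofructokinase, the committing step of glycolysis, has 3 genes that split in direction. Pfkp, the platelet form, had 417.5, 349, 353 and 376 CPM in AdC3KO at 4 °C, against 76.3, 72.5 and 78.5 CPM in AdC3KO at 30 °C. In WT it had 273, 318, 294.5 and 386 CPM at 4 °C, against 82.7, 92.8 and 78.6 CPM at 30 °C. The libraries in the cold did not overlap those at 30 °C. The log2 fold change was 2.30 in AdC3KO (SE 0.12, adjusted p = 2.85e-10) and 1.91 in WT (SE 0.12, adjusted p = 1.66e-09). Pfkp overlaps Pitrm1 on the opposite strand over 5.58% of its exon length, and whether counting used strand is not given in the sources used here. Pfkm, the muscle form, went the other way. It had 58.9, 60.5, 89.1 and 56.8 CPM in AdC3KO at 4 °C, against 134, 127 and 120.1 CPM in AdC3KO at 30 °C. In WT it had 67.7, 51.0, 60.7 and 59.0 CPM at 4 °C, against 111.5, 118 and 133 CPM at 30 °C. The single high value in the cold, 89.1 CPM, was from AdC3KO library 3, which also had the highest skeletal muscle sum, 599.7 CPM. The log2 fold change was −0.94 in AdC3KO (SE 0.14, adjusted p = 1.87e-05) and −1.02 in WT (SE 0.14, adjusted p = 8.34e-06), and it was −1.04 in AdC3KO and −0.88 in WT without the 5 libraries with muscle transcripts. Pfkm overlaps Gm26513, with 161 counts in all libraries, on the same strand over 10.2% of its exon length. Pfkl is the liver form and the most abundant of the family per length. Pfkl had 756, 598, 744 and 655 CPM in AdC3KO at 4 °C, against 450, 416 and 403 CPM in AdC3KO at 30 °C. In WT, Pfkl had 729.6, 547, 623 and 696 CPM at 4 °C, against 411, 434 and 435 CPM at 30 °C. The 4 °C libraries all lay above the 30 °C libraries of the same genotype. Its log2 fold change was 0.70 in AdC3KO (adjusted p = 4.38e-05) and 0.61 in WT (adjusted p = 0.000187).

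The PFKFB enzymes make and remove the sugar bisphosphate that activates phosphofructokinase. Pfkfb1, the form known from liver and muscle, had 6.82, 10.9, 12.1 and 5.77 CPM in AdC3KO at 4 °C, against 63.4, 58.7 and 51.8 CPM in AdC3KO at 30 °C. In WT, 12.1, 7.08, 9.45 and 6.08 CPM at 4 °C stood against 41.9, 43.3 and 50.9 CPM at 30 °C. This was the steepest fall among the members, with a log2 fold change of −2.71 in AdC3KO (SE 0.25, adjusted p = 4.56e-07) and −2.40 in WT (SE 0.25, adjusted p = 1.71e-06). Pfkfb2 is the heart form. Pfkfb2 had 5.67, 6.67, 6.26 and 4.93 CPM in AdC3KO at 4 °C, against 12.0, 9.82 and 12.3 CPM in AdC3KO at 30 °C. In WT, Pfkfb2 had 6.90, 4.87, 3.94 and 4.57 CPM at 4 °C, against 11.2, 10.9 and 9.64 CPM at 30 °C. The groups did not overlap, and Pfkfb2 fell by 0.95 on the log2 scale in AdC3KO (adjusted p = 0.000180) and by 1.07 in WT (adjusted p = 6.98e-05). Pfkfb2 overlaps Yod1 on the opposite strand over 2.12% of its exon length, and Gm29427, with 22 counts in all libraries, on the same strand over 17.4%. Pfkfb3, the inducible form that strongly favours synthesis, was the most abundant of the family, also per exon length, at 282 ± 47.4 CPM in AdC3KO and 244 ± 34.3 in WT at 4 °C and 326 ± 69.8 CPM in AdC3KO and 322.5 ± 119.7 in WT at 30 °C. It did not pass the test in either genotype, nor did Pfkfb4, which had 2.00 to 5.75 CPM. Pfkfb4 was highest at 4 °C in AdC3KO library 1 and WT library 4. Without these 2 libraries its log2 fold change was −0.69 in AdC3KO (adjusted p = 0.0102) and −0.72 in WT (adjusted p = 0.00830), against −0.50 and −0.41 with them. They were left out for their macrophage sums, after the data were seen. Leaving out the highest values at 4 °C deepens a fall by construction, so no call is drawn from this fit.

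Of the enzymes that oppose the flow, Fbp2 is the muscle fructose bisphosphatase. Fbp2 had 7.98, 11.8, 11.4 and 10.2 CPM in AdC3KO at 4 °C, against 5.76, 4.797 and 5.61 CPM in AdC3KO at 30 °C. In WT, Fbp2 had 6.84, 8.23, 10.6 and 8.32 CPM at 4 °C, against 6.34, 6.83 and 5.49 CPM at 30 °C. The ranges at 4 °C and 30 °C were apart in both genotypes. It rose by a log2 fold change of 0.94 in AdC3KO (adjusted p = 0.000208) and 0.45 in WT (adjusted p = 0.0332). The call in WT was lost without WT library 1 (adjusted p = 0.0676) or 3 (0.129) at 30 °C, or WT library 2 (0.0509) or 3 (0.118) at 4 °C. Tigar is a phosphatase that lowers the same activating sugar. Tigar had 25.9, 22.8, 20.8 and 27.5 CPM in AdC3KO at 4 °C, against 15.4, 15.5 and 19.5 CPM in AdC3KO at 30 °C. In WT, Tigar had 25.0, 33.8, 26.0 and 19.8 CPM at 4 °C, against 13.6, 18.1 and 16.4 CPM at 30 °C. Every library at 4 °C was above every library at 30 °C of its genotype. Tigar rose by 0.53 in AdC3KO (adjusted p = 0.0104) and 0.70 in WT (adjusted p = 0.00161).

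From the splitting of the sugar onwards, several of the most abundant enzymes rose. Aldoa, the muscle and general aldolase, was the most highly expressed member per exon length at both temperatures, and in CPM at 4 °C. At 30 °C Eno1 had higher group means, 1526 CPM in AdC3KO and 1736 in WT, against 1456 and 1646 CPM for Aldoa. Aldoa had 3760, 3615, 3713 and 3916 CPM in AdC3KO at 4 °C, against 1313, 1239 and 1816 CPM in AdC3KO at 30 °C. In WT it had 3630, 3359, 3603 and 3383 CPM at 4 °C, against 1816, 1918 and 1205 CPM at 30 °C. The cold libraries were close together and all above those at 30 °C, which fell into a lower and a higher set. The log2 fold change was 1.37 in AdC3KO (SE 0.16, adjusted p = 1.68e-06) and 1.09 in WT (SE 0.16, adjusted p = 1.87e-05). Pgk1, the first step that yields ATP, had 958, 1043, 989 and 1021 CPM in AdC3KO at 4 °C, against 479, 454 and 485 CPM in AdC3KO at 30 °C. In WT it had 960, 873, 940.1 and 948 CPM at 4 °C, against 445, 468 and 491 CPM at 30 °C. The groups did not overlap, and its log2 fold change was 1.09 in AdC3KO (SE 0.08, adjusted p = 1.48e-08) and 0.99 in WT (SE 0.08, adjusted p = 4.12e-08).

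Pgam1 is the phosphoglycerate mutase of most tissues. Pgam1 had 285, 298, 325 and 316 CPM in AdC3KO at 4 °C, against 174, 165 and 181 CPM in AdC3KO at 30 °C. In WT, Pgam1 had 333, 278, 305 and 270.1 CPM at 4 °C, against 167, 179.6 and 177 CPM at 30 °C. The 4 °C libraries all lay above the 30 °C libraries of the same genotype. Pgam1 rose by a log2 fold change of 0.82 in AdC3KO (adjusted p = 7.36e-07) and 0.76 in WT (adjusted p = 1.68e-06). Gapdh is often used as a reference gene. Gapdh had 1665, 1878, 1705 and 2053 CPM in AdC3KO at 4 °C, against 921, 841 and 1274 CPM in AdC3KO at 30 °C. In WT, Gapdh had 1700, 1685, 1853 and 1593 CPM at 4 °C, against 1329, 1418 and 823 CPM at 30 °C. The ranges at 4 °C and 30 °C were apart in both genotypes. Its log2 fold change was 0.85 in AdC3KO (adjusted p = 0.000486) and 0.52 in WT (adjusted p = 0.0156), and the call in WT was lost without WT library 3 at 30 °C (0.32, adjusted p = 0.0935). Tpi1 interconverts the triose phosphates. Tpi1 had 501, 494, 530.1 and 517 CPM in AdC3KO at 4 °C, against 380.5, 390.5 and 399 CPM in AdC3KO at 30 °C. In WT, Tpi1 had 531, 432, 479.9 and 515 CPM at 4 °C, against 356, 406 and 396 CPM at 30 °C. Every library at 4 °C was above every library at 30 °C of its genotype. Tpi1 rose by 0.39 in AdC3KO (adjusted p = 0.00112) and 0.34 in WT (adjusted p = 0.00309). Copies of Gapdh elsewhere in the genome, 43 genes in all, held counts equal to 0.287% of its own.

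Of the remaining enzymes, some passed the test in AdC3KO and none in WT. Eno1, the general enolase, was at 1792 ± 191 CPM in AdC3KO on average, with 1894 ± 268 CPM in WT at 4 °C, against 1526 ± 253 CPM in AdC3KO and 1736 ± 418 in WT at 30 °C, and did not pass the test. Gpi1 is phosphoglucose isomerase. Gpi1 had 693, 760.5, 686 and 709 CPM in AdC3KO at 4 °C, against 569, 545 and 646 CPM in AdC3KO at 30 °C. In WT, Gpi1 had 791, 611, 734 and 647 CPM at 4 °C, against 633, 691 and 543 CPM at 30 °C. The groups overlapped in WT and did not in AdC3KO. Gpi1 had a log2 fold change of 0.28 in AdC3KO (adjusted p = 0.0379) and 0.16 in WT (adjusted p = 0.223). Pkm is the pyruvate kinase of muscle and most other tissues. Pkm had 1655, 1713, 1510 and 1868 CPM in AdC3KO at 4 °C, against 1221, 1181 and 1534 CPM in AdC3KO at 30 °C. In WT, Pkm had 1775, 1463, 1766 and 1537 CPM at 4 °C, against 1448, 1558 and 1183 CPM at 30 °C. The groups overlapped in each genotype. The log2 fold change of Pkm was 0.36 in AdC3KO (adjusted p = 0.0218) and 0.23 in WT (adjusted p = 0.136). Counts per gene do not separate the spliced forms of Pkm. Pkm overlaps Gm49759, with 15294 counts in all libraries, on the same strand over 15.3% of its exon length. The call of Gpi1 was lost without AdC3KO library 1 (0.0994) or 2 (0.142) at 30 °C or AdC3KO library 2 (0.0872) or 4 (0.0612) at 4 °C, and that of Pkm without AdC3KO library 1 (0.0823) or 2 (0.103) at 30 °C or library 4 (0.0646) at 4 °C, all as adjusted p. Aldoc and Eno2, the forms best known from brain, had at most 4.06 CPM in any library. Eno2 fell in AdC3KO by 0.81 on the log2 scale (adjusted p = 0.0264), a call lost without AdC3KO library 3 at 30 °C (0.0890) or AdC3KO library 1 (0.0560), 2 (0.0563) or 3 (0.0813) at 4 °C.

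The muscle forms Eno3 and Pgam2 were highest at 4 °C in 1 library, AdC3KO library 3. Eno3 had 2.95, 2.54, 18.3 and 2.91 CPM in AdC3KO at 4 °C, against 13.0, 10.8 and 9.49 CPM in AdC3KO at 30 °C. In WT it had 3.71, 5.97, 2.80 and 5.02 CPM at 4 °C, against 11.9, 9.50 and 17.5 CPM at 30 °C. All libraries in the cold but AdC3KO library 3, with the highest skeletal muscle sum, were below those at 30 °C. The log2 fold change in AdC3KO was −0.75 (adjusted p = 0.319) with this library and −1.97 (adjusted p = 1.06e-05) without it. In WT it was −1.57 (adjusted p = 0.0511), and −1.58 (adjusted p = 2.81e-05) when the same AdC3KO library was left out of the shared fit. This library was singled out after the data were seen. Leaving out the highest value at 4 °C deepens the fall in AdC3KO by construction and narrows the spread that both genotypes share. No call of Eno3 is drawn from these fits. Pgam2 had 4.45 CPM in that library and 0.344 to 1.14 CPM in the other libraries at 4 °C of both genotypes. At 30 °C it had 2.22, 0.855 and 0.886 CPM in AdC3KO and 1.82, 0.838 and 3.10 CPM in WT. Its log2 fold change was 0.33 in AdC3KO (adjusted p = 0.698) and −1.325 in WT (adjusted p = 0.118), and it did not pass the test.

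Lactate dehydrogenase rose modestly and the lactate transporters by more. Ldha encodes the subunit that favours lactate formation. Ldha had 1271, 1165, 1278 and 1170 CPM in AdC3KO at 4 °C, against 749, 778 and 905 CPM in AdC3KO at 30 °C. In WT, Ldha had 1289, 868, 1171 and 1267 CPM at 4 °C, against 929, 1044 and 758 CPM at 30 °C. The groups overlapped in WT and did not in AdC3KO. Its log2 fold change was 0.59 in AdC3KO (adjusted p = 0.00156) and 0.34 in WT (adjusted p = 0.0457). The call in WT was lost in 11 of 14 fits that left out 1 library, with an adjusted p of up to 0.218. Ldhb encodes the subunit that favours lactate use. Ldhb had 651, 757, 802 and 705 CPM in AdC3KO at 4 °C, against 473, 518 and 584 CPM in AdC3KO at 30 °C. In WT, Ldhb had 662, 596, 643 and 596 CPM at 4 °C, against 481, 527 and 524 CPM at 30 °C. The 4 °C libraries all lay above the 30 °C libraries of the same genotype. Ldhb rose by 0.47 in AdC3KO (adjusted p = 0.000585) and 0.29 in WT (adjusted p = 0.0184), and the call in WT was lost without WT library 1 at 30 °C (0.0766) or WT library 1 at 4 °C (0.0558).

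Slc16a1 encodes MCT1, which carries lactate, pyruvate and ketone bodies. It had 715, 784, 716 and 600.4 CPM in AdC3KO at 4 °C, against 301, 346.5 and 309 CPM in AdC3KO at 30 °C. In WT it had 1139, 712, 805 and 662 CPM at 4 °C, against 273, 344 and 364 CPM at 30 °C. The groups did not overlap, and the log2 fold change was 1.14 in AdC3KO (SE 0.17, adjusted p = 1.88e-05) and 1.34 in WT (SE 0.17, adjusted p = 3.85e-06). Slc16a3 encodes MCT4, known for lactate export from glycolytic cells. It had 19.99, 7.49, 10.3 and 7.29 CPM in AdC3KO at 4 °C, against 1.24, 0.595 and 0.812 CPM in AdC3KO at 30 °C. In WT, 10.7, 3.62, 6.13 and 22.1 CPM at 4 °C stood against 0.911, 0.838 and 0.493 CPM at 30 °C. It showed the steepest rise among the members, from a low level, with a log2 fold change of 3.66 in AdC3KO (SE 0.65, adjusted p = 0.000357) and 3.84 in WT (SE 0.67, adjusted p = 0.000321). Its highest values again came from AdC3KO library 1 and WT library 4 at 4 °C, and without both the log2 fold change was 3.25 in AdC3KO and 3.20 in WT. Bsg encodes basigin, the partner that brings both transporters to the membrane. Bsg had 524, 408, 548 and 461 CPM in AdC3KO at 4 °C, against 286, 305 and 297 CPM in AdC3KO at 30 °C. In WT, Bsg had 467, 362, 400.3 and 535 CPM at 4 °C, against 264, 287 and 316 CPM at 30 °C. The ranges at 4 °C and 30 °C were apart in both genotypes. Bsg rose by 0.71 in AdC3KO (adjusted p = 0.000189) and 0.61 in WT (adjusted p = 0.000772).

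Markers of other cell types also moved with temperature. The 10 endothelial markers summed to 1462 to 1771 CPM in AdC3KO and 1403 to 1527 in WT at 4 °C, against 783 to 873 CPM in AdC3KO and 748 to 1016 in WT at 30 °C, with 5 higher and 3 lower in AdC3KO and 5 higher and 4 lower in WT. The macrophage list, all 10 tested, had 4 higher in AdC3KO and 7 in WT. Of 5 red blood cell markers tested, 5 were higher in AdC3KO and 4 in WT. Of 12 brown adipocyte markers, 7 were higher and 1 lower in AdC3KO, and 7 higher and 2 lower in WT. Fibroblast markers, 7 tested, had 1 lower in AdC3KO, and 2 higher and 1 lower in WT. Of 6 nerve and Schwann cell markers tested, 1 was higher and 3 lower in AdC3KO, and 4 were lower in WT. Over all genes, 31.0% were higher and 32.1% lower in AdC3KO, and 30.6% and 30.8% in WT. The part of these cell types in the rise of Slc2a1, Slc16a3 and other members was not tested. Without AdC3KO library 1 and WT library 4 at 4 °C, an alternative chosen after the data were seen, 20 members rose and 6 fell in AdC3KO and 16 rose and 6 fell in WT. Of all genes, 32.1% rose and 32.2% fell in AdC3KO in that fit, and 30.6% rose and 31.7% fell in WT.

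Because levels between genes depend on length, shares within a family were computed from CPM per kb of exon. Phosphofructokinase changed its makeup in the cold. Pfkm gave 13.1 ± 2.34% of the family in AdC3KO and 12.9 ± 0.88% in WT at 4 °C, against 35.5 ± 0.39% in AdC3KO and 33.97 ± 1.71% in WT at 30 °C. Pfkp gave 18.6 ± 1.71% in AdC3KO and 17.2 ± 2.77% in WT at 4 °C, against 5.29 ± 0.38% in AdC3KO and 5.95 ± 0.60% in WT at 30 °C. Pfkl held the largest share in all groups, 68.3% in AdC3KO and 69.9% in WT at 4 °C and 59.2% in AdC3KO and 60.1% in WT at 30 °C. These shares are descriptions, with no test.

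Among the 4 glucose transporters, Slc2a1 gave 13.5 ± 4.29% in AdC3KO and 12.8 ± 5.28% in WT at 4 °C, against 1.46 ± 0.15% in AdC3KO and 1.32 ± 0.10% in WT at 30 °C. Slc2a4 remained the main form, with 82.6% in AdC3KO and 82.5% in WT at 4 °C and 92.8% in AdC3KO and 92.6% in WT at 30 °C. The summed level of the 4 transporters was lower in the cold, 74.6 ± 4.19 CPM per kb in AdC3KO and 66.0 ± 6.79 in WT, against 112 ± 15.8 in AdC3KO and 114 ± 5.58 in WT at 30 °C. Hexokinase was mostly Hk2, at 94.5% in AdC3KO and 93.4% in WT at 4 °C and 92.4% in AdC3KO and 91.8% in WT at 30 °C. With the longest transcript as gene length, Hk1 gave 9.65% in AdC3KO and 11.5% in WT at 4 °C and 13.2% in AdC3KO and 14.2% in WT at 30 °C, with Hk2 as the rest. The summed hexokinase level was 111 ± 18.2 CPM per kb in AdC3KO and 92.5 ± 5.63 in WT at 4 °C, against 37.8 ± 6.52 in AdC3KO and 37.2 ± 4.18 in WT at 30 °C. In the PFKFB family, Pfkfb1 gave 5.48 ± 2.13% in AdC3KO and 6.17 ± 2.24% in WT at 4 °C, against 24.3 ± 2.46% in AdC3KO and 20.7 ± 3.55% in WT at 30 °C.

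**Figure D3:**
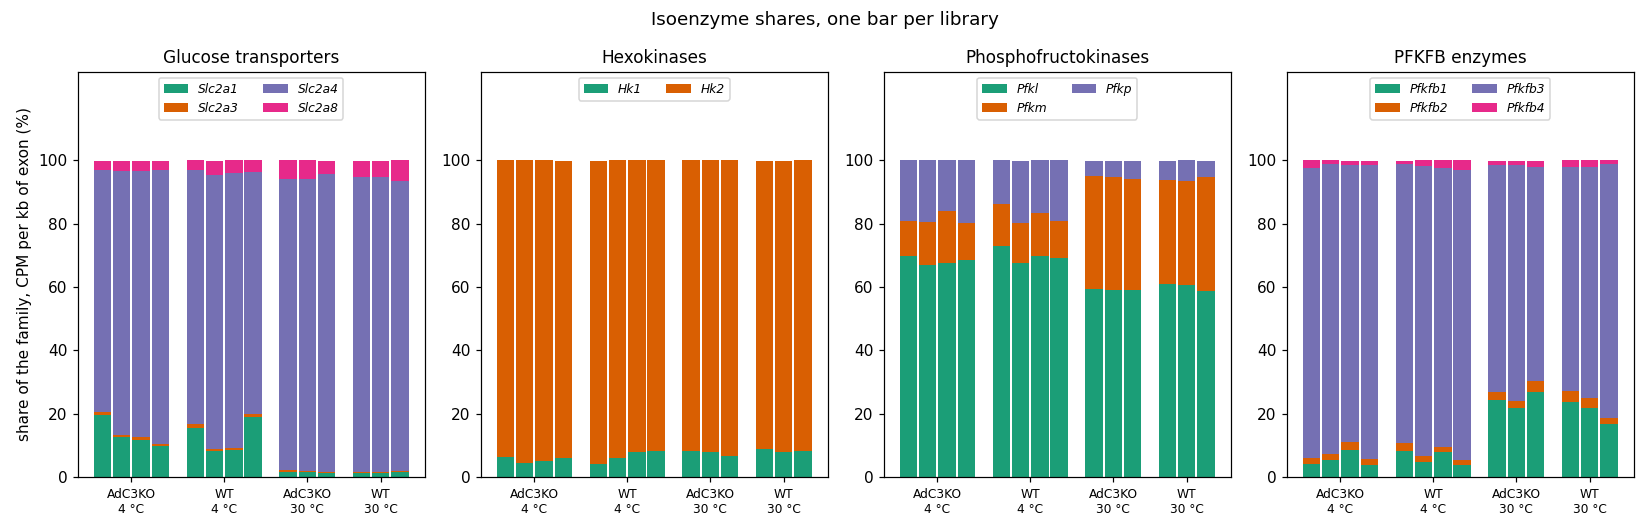
Share of each gene in the summed level of its family (vertical axis, percent of CPM per kb of exon), 1 bar per library, grouped by genotype and temperature. Slc2a1 and Pfkp take larger shares, and Pfkm and Pfkfb1 smaller ones, in every library at 4 °C than at 30 °C.

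Promoters are shown for members that changed at least 2-fold in both genotypes. Each window runs from 250 bases before to 50 bases after a gene's start and was taken from RefSeq on GRCm38.p6, printed on the gene's strand. Windows were found for 31 of 34 members. Capitals mark exact matches, on either strand, to ACGTG or GCGTG, the cores bound by hypoxia-inducible factors, and to TGACG, the half-site of cAMP-responsive factors, which can overlap ACGTG. Of 8 such members, the 6 with a single window in the table are printed, which leaves out Aldoa and Pfkfb1. The first 5 genes rose in the cold and the last fell.
Slc16a3 (chr11:120948817-120949116, plus strand): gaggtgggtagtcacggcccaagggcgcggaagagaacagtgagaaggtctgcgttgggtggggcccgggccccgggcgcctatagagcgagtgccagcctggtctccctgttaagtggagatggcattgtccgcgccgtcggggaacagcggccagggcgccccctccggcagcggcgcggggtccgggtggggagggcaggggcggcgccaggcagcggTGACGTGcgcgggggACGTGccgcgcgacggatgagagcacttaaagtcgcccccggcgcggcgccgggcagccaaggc
Slc2a1 (chr4:119108495-119108794, plus strand): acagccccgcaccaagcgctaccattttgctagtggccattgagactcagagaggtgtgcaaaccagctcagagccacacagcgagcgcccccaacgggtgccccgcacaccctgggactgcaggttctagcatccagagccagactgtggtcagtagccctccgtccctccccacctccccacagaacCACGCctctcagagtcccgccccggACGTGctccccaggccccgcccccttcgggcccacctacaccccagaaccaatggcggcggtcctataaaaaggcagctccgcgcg
Pfkp (chr13:6648722-6649021, minus strand): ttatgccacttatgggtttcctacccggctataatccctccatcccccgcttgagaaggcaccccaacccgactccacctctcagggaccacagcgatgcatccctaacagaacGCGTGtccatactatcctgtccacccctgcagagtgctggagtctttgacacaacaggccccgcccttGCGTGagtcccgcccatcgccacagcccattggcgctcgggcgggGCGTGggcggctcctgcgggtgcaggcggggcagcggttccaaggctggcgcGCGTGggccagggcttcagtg
Slc16a1 (chr3:104638414-104638713, plus strand): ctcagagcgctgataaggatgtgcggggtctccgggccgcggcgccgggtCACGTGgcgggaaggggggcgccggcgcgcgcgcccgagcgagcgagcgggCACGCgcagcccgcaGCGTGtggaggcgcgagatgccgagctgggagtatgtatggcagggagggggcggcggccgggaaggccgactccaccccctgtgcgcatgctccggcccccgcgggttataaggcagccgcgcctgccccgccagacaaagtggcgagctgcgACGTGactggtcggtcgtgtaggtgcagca
Hk2 (chr6:82774405-82774704, minus strand): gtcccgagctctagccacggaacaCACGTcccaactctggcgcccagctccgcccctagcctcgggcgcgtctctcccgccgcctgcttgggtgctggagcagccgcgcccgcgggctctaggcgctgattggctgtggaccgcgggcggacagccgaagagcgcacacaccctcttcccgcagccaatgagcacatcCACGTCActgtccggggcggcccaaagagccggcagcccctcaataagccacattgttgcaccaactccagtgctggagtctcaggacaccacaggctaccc
Slc2a8 (chr2:32982034-32982333, minus strand): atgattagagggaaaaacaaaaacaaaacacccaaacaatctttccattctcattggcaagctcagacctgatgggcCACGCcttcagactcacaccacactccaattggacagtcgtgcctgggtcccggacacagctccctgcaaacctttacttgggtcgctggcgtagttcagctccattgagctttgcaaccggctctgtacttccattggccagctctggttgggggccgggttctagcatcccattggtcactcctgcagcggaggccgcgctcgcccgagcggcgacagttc

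ACGTG was found in 41.7% of the members' 48 windows, beside 19.6% of all 32851 windows in the table. GCGTG was in 52.1% of members' windows and 32.4% of all, and TGACG in 22.9% and 20.8%. The E-box CACGTG, which contains ACGTG, was in 12.5% of members' windows and 7.15% of all, and AAGGTCA, the half-site of estrogen-related receptors, in 6.25% and 4.72%. Of all 31 members with a window, 16 had ACGTG and 19 had GCGTG in any window. Of 16 members with a window that rose in both genotypes, 11 had ACGTG and 9 had GCGTG in any window. Of 4 that fell in both, 2 had ACGTG and 4 had GCGTG. A match says only that these letters stand in the window, and members with several starts have several windows. The counts of members are per gene, and no share per gene over all genes was computed to set beside them. Both cores contain CG, and the printed windows were 55.7% to 73.7% G or C. The members' windows were not compared with windows of like base content.

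Genes next to the pathway moved in both directions. Of 7 other sugar transporters tested, none rose and 3 fell in each genotype. Slc45a4 was at 3.10 ± 1.19 CPM in AdC3KO and 3.89 ± 0.758 in WT at 4 °C, against 24.4 ± 2.92 CPM in AdC3KO and 25.5 ± 3.29 in WT at 30 °C. Slc45a4, a member of a sugar transporter family, fell by 2.98 on the log2 scale in AdC3KO (adjusted p = 3.09e-08) and by 2.71 in WT (adjusted p = 8.24e-08). Slc2a9, the urate transporter GLUT9, fell by 1.23 on the log2 scale in AdC3KO (adjusted p = 0.0055) and by 1.95 in WT (adjusted p = 0.000172). Slc2a12, the glucose transporter GLUT12, fell by 1.60 on the log2 scale in AdC3KO (adjusted p = 0.000471) and by 1.66 in WT (adjusted p = 0.000475). Slc2a9 and Slc2a12 were low, with group means of at most 3.16 CPM. Of 13 other glycolytic and gluconeogenic enzymes, 2 rose and 4 fell in each genotype. Galm, which interconverts forms of galactose and glucose, fell by 1.42 on the log2 scale in AdC3KO (adjusted p = 3.92e-07) and by 1.35 in WT (adjusted p = 7.89e-07). Gpd2 was at 1324 ± 111 CPM in AdC3KO and 1335 ± 256 in WT at 4 °C, against 668 ± 98.3 CPM in AdC3KO and 715 ± 156 in WT at 30 °C. Gpd2, the mitochondrial glycerol phosphate dehydrogenase that passes electrons from cytosolic NADH to the respiratory chain, rose by a log2 fold change of 0.99 in AdC3KO (adjusted p = 9.87e-05) and 0.90 in WT (adjusted p = 0.000236). Gapdhs, the sperm form of Gapdh, fell by 0.84 on the log2 scale in AdC3KO (adjusted p = 0.00396) and by 0.82 in WT (adjusted p = 0.00506). G6pc3, a widely expressed glucose-6-phosphatase, fell by 0.77 on the log2 scale in AdC3KO (adjusted p = 2.57e-05) and by 0.82 in WT (adjusted p = 1.40e-05).

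Of 12 pentose phosphate genes, 1 rose and 5 fell in AdC3KO and 2 rose and 3 fell in WT. Shpk, sedoheptulokinase, fell by 1.0 on the log2 scale in AdC3KO (adjusted p = 2.86e-05) and by 0.92 in WT (adjusted p = 7.66e-05). Prps2, which makes phosphoribosyl pyrophosphate, fell by 0.68 on the log2 scale in AdC3KO (adjusted p = 0.0324) and by 0.89 in WT (adjusted p = 0.00756). Rbks, ribokinase, rose by a log2 fold change of 0.73 in AdC3KO (adjusted p = 0.000894) and 0.79 in WT (adjusted p = 0.000535). Pgls, the lactonase of the oxidative branch, fell by 0.70 on the log2 scale in AdC3KO (adjusted p = 0.000208) and by 0.62 in WT (adjusted p = 0.000594). Among 13 neighbours of pyruvate and lactate, 4 rose and 4 fell in each genotype. Hcar1 was at 0.564 ± 0.179 CPM in AdC3KO and 1.33 ± 0.790 in WT at 4 °C, against 41.9 ± 16.5 CPM in AdC3KO and 39.9 ± 16.9 in WT at 30 °C. Hcar1, the lactate receptor of adipocytes, fell by 6.18 on the log2 scale in AdC3KO (adjusted p = 5.76e-07) and by 4.91 in WT (adjusted p = 2.24e-06). Emb, embigin, a membrane partner of monocarboxylate transporters related to basigin, rose by a log2 fold change of 2.29 in AdC3KO (adjusted p = 6.59e-05) and 2.55 in WT (adjusted p = 2.53e-05). Slc16a8, the lactate transporter MCT3, best known from the retinal pigment epithelium, rose by a log2 fold change of 2.30 in AdC3KO (adjusted p = 0.00282) and 1.69 in WT (adjusted p = 0.0163). Gpt2, the mitochondrial alanine aminotransferase, rose by a log2 fold change of 0.87 in AdC3KO (adjusted p = 0.00455) and 1.20 in WT (adjusted p = 0.000461). Slc16a8 was low, with group means of at most 1.19 CPM.

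Of 15 regulators of GLUT4 trafficking and glucose uptake, 4 rose and 7 fell in AdC3KO and 5 rose and 8 fell in WT. Trarg1 was at 55.7 ± 22.7 CPM in AdC3KO and 94.4 ± 7.19 in WT at 4 °C, against 349.5 ± 54.4 CPM in AdC3KO and 385 ± 30.4 in WT at 30 °C. Trarg1, a protein of GLUT4 vesicles, fell by 2.65 on the log2 scale in AdC3KO (adjusted p = 9.40e-07) and by 2.03 in WT (adjusted p = 1.04e-05). Tbc1d4, which holds GLUT4 inside the cell until insulin signals, fell by 1.45 on the log2 scale in AdC3KO (adjusted p = 4.13e-07) and by 1.51 in WT (adjusted p = 3.09e-07). Tbc1d1, its close relative in muscle, rose by a log2 fold change of 0.45 in AdC3KO (adjusted p = 0.0120) and 0.62 in WT (adjusted p = 0.00134). Lnpep, the aminopeptidase IRAP of GLUT4 vesicles, rose by a log2 fold change of 0.40 in AdC3KO (adjusted p = 0.00121) and 0.60 in WT (adjusted p = 2.72e-05). Of 14 transcription factors known to act on glycolytic genes, 6 rose and 6 fell in AdC3KO and 7 rose and 6 fell in WT. Srebf1 was at 26.3 ± 3.26 CPM in AdC3KO and 27.1 ± 10.8 in WT at 4 °C, against 250.3 ± 36.9 CPM in AdC3KO and 268 ± 27.5 in WT at 30 °C. Srebf1, an activator of lipid synthesis genes, fell by 3.25 on the log2 scale in AdC3KO (adjusted p = 3.83e-08) and by 3.30 in WT (adjusted p = 3.68e-08). Mlxipl, the glucose-sensing factor ChREBP, fell by 1.94 on the log2 scale in AdC3KO (adjusted p = 1.33e-10) and by 2.12 in WT (adjusted p = 7.25e-11). Esrrb, an estrogen-related receptor, rose by a log2 fold change of 1.92 in AdC3KO (adjusted p = 9.79e-06) and 2.07 in WT (adjusted p = 7.43e-06). Esrrg, another receptor of that family, fell by 1.38 on the log2 scale in AdC3KO (adjusted p = 7.67e-06) and by 1.35 in WT (adjusted p = 1.05e-05). Hif1a, the oxygen-regulated factor, was named after its values were seen. Hif1a, whose product binds ACGTG and GCGTG cores, rose by a log2 fold change of 1.18 in AdC3KO (adjusted p = 3.28e-08) and 1.28 in WT (adjusted p = 1.50e-08). The part of Hif1a in the changes of the members was not tested. None of the genes in these 6 lists was called between genotypes.

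The last question was whether the knockout changed the pathway. At 4 °C no member was called between AdC3KO and WT, and all genes gave 0.0439% higher and 0.00627% lower in AdC3KO. A total of 4 members had an unadjusted p below 0.05, all higher in AdC3KO, namely Bpgm, Ldhb, Pfkp and Hk2. Among all genes 2.19% were higher and 2.60% lower at that p. DESeq2 called 1 member, Bpgm, higher, and 0.0782% of all genes higher and 0.0365% lower. At 30 °C no member was called by either tool and none had an unadjusted p below 0.05. Among all genes, edgeR called 0.0376% higher and 0.00627% lower in AdC3KO, and 0.671% were higher and 0.658% lower at an unadjusted p below 0.05. DESeq2 called 0.0229% higher and 0.00327% lower. The genotype by temperature interaction (AdC3KO's cold response less WT's) gave 0 calls among members and in 0% of all genes by edgeR, higher or lower, and no member was called by DESeq2. At an unadjusted p below 0.05 there were 2 members, Pfkp and Bpgm, both with a positive interaction, beside 1.02% of all genes with a positive and 1.17% with a negative one. Libraries of the genotypes did not overlap for 1 of 33 members at 4 °C, where 2.27% of all genes did not, and for 4 of 33 at 30 °C, where 7.29% did not.

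Bpgm encodes bisphosphoglycerate mutase, best known from red blood cells, where its product loosens the grip of hemoglobin on oxygen. It had 25.2, 30.6, 31.3 and 24.9 CPM in AdC3KO at 4 °C, against 16.9, 18.7, 22.7 and 20.4 CPM in WT at 4 °C. Every AdC3KO library was above every WT library in the cold, with a log2 fold change, AdC3KO over WT, of 0.51 (SE 0.11, adjusted p = 0.328 by edgeR and 0.033 by DESeq2). At 30 °C Bpgm was at 21.6 ± 1.15 CPM in AdC3KO on average, with 20.8 ± 2.23 CPM in WT. The red blood cell markers summed to 496.6 to 622.6 CPM in AdC3KO and 326.6 to 599 in WT at 4 °C, and their part in this difference was not tested. In the cold Bpgm rose by 0.37 in AdC3KO (adjusted p = 0.0151), a call lost without AdC3KO library 3 at 30 °C (adjusted p = 0.0547), and its log2 fold change in WT was −0.08 (adjusted p = 0.595).

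The log2 fold change at 4 °C, AdC3KO over WT, was 0.25 for Slc2a1 (SE 0.28) and 0.08 for Slc16a3 (SE 0.49), and 0.29 for Hk2 (SE 0.13), 0.23 for Pfkp (SE 0.10) and 0.22 for Ldhb (SE 0.09), each with an adjusted p of 0.96 or more. It was 0.18 for Slc2a4 (SE 0.10), 0.10 for Aldoa (SE 0.14) and 0.11 for Pgk1 (SE 0.07). A p that misses the threshold does not show that the genotypes were alike. Of the members on chromosome 6, where Clstn3 lies, Eno2, Tpi1 and Gapdh are less than 1 Mb from it. None of these was called between genotypes. Slc2a3 and Tigar lie 1.63 and 2.62 Mb from Clstn3, Ldhb 18.0 Mb, Hk2 41.7 Mb and Bpgm 89.9 Mb. Ldhb, Hk2 and Bpgm had an unadjusted p below 0.05 at 4 °C by edgeR, and DESeq2 called Bpgm. Pfkp, which also had such a p, lies on chromosome 13. The part of the shared chromosome in these differences was not tested.

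**Figure D4:**
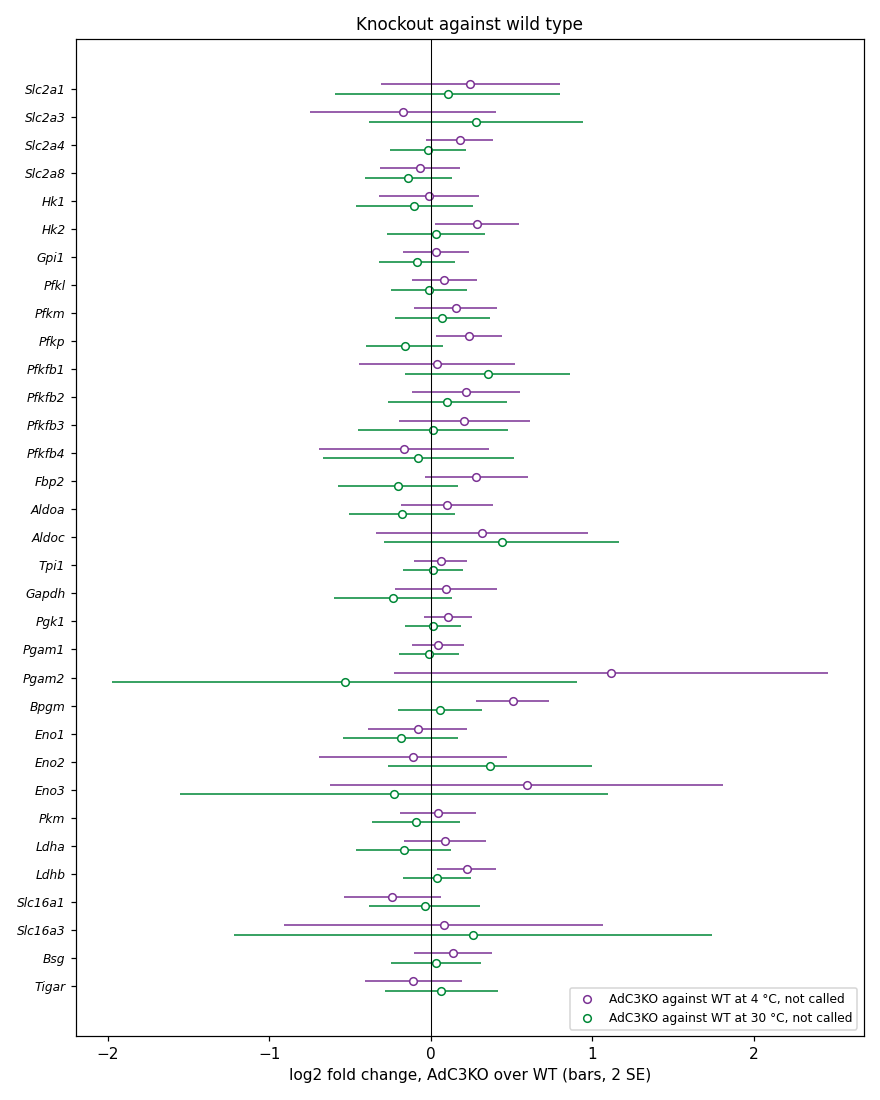
Log2 fold change of each tested member, AdC3KO over WT (horizontal axis), at 4 °C (purple, upper point) and 30 °C (green, lower point); bars span 2 SE to each side and open points did not pass the test. No member passed at either temperature, and Bpgm at 4 °C lies at 0.51.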

How the data were processed

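RNA was sequenced from BAT of AdC3KO and WT mice in 14 libraries, grouped by the genotype and temperature in the sample titles. The labels give no batch or date. Total RNA was extracted with TRIzol and columns, per the labels' protocols. The deposited table holds raw integer counts for each Ensembl gene, which the authors made with Trimmomatic, STAR (GRCm38/mm10) and HTSeq, per the submitters' processing notes; no source used here names their versions, the annotation release or the strand setting. The 5 summary lines that name no gene were left out; reads outside genes came to 5.95% to 8.19% of a library.

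Counts were tested with edgeR 4.0.16 in R 4.3.3 (filterByExpr, minimum count 10; TMM; 1 robust quasi-likelihood fit of the 4 group means over 14 libraries; Benjamini-Hochberg adjustment over 15949 genes at 0.05). DESeq2 1.42.0 was an alternative. CPM use TMM factors, and CPM per kb the merged exon length of GENCODE vM21 on GRCm38, which named 99.41% of identifiers. The limit for 0 counts is 3 counts over all libraries and covers counting error only, as no molecular identifiers are named. Within groups, every pair of libraries differed beyond counting noise (chi-square per degree of freedom 16.9 to 83.6). The edgeR step was tested on simulated data. Of simulated 1.5-fold changes it recovered 34.2% between genotypes at 4 °C and at 30 °C, and 7.59% for the interaction. For cold it recovered 36.7% in AdC3KO and 29.1% in WT. Of 2-fold changes it recovered 69% between genotypes at 4 °C, 60.3% at 30 °C and 43.1% for the interaction. Small genotype differences can thus be missed.

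The members, gene lists and tests were chosen with earlier results of these data known. All members were described, with values per library for those called in a cold comparison that changed at least 2-fold or had the highest level per length of their step, and of each gene list up to 4 called genes with the largest change in WT were named. Values per library of other members, and Hif1a, were added after their values were seen. Alternatives were other scalings, filters, DESeq2, fits of the compared groups only, a replicate block, leaving out libraries singly, leaving out or adjusting for muscle transcripts, and another gene length for shares.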

Additional observations from a re-analysis of the deposited data

Results flagged for a closer look

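In the 4 AdC3KO libraries at 4 °C, library 3 stood apart from the others for 2 members. Pfkm had 89.1 CPM in it and 56.8 to 60.5 CPM in the other 3. Eno3 had 18.3 CPM in it and 2.54 to 2.95 CPM in the other 3. This library also had the highest skeletal muscle sum, 599.7 CPM, against 46.8 to 55.2 CPM in the other 3. A sample was marked when its gap to the nearest other, divided by the range of its group, exceeded Dixon's 95% critical value. The gap was 0.887 of the range for Pfkm and 0.974 for Eno3. Of 66 groups of 4 libraries examined 2 were marked, and chance marks about 1 in 20.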

How the results depend on the processing

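No call turned round in direction under any of 24 alternatives. Leaving out 1 library at a time gave 18 to 20 members higher and 5 to 6 lower in the cold in AdC3KO, and 14 to 17 higher and 5 to 7 lower in WT. Of all genes, 27.6% to 32.6% were higher and 28.6% to 32.5% lower in AdC3KO, and 27.5% to 30.2% higher and 26.9% to 31.4% lower in WT. Between genotypes these fits called 0 members. Of all genes they called 0.0377% to 0.0503% higher and 0.00609% to 0.0125% lower in AdC3KO at 4 °C. At 30 °C the shares were 0.0183% to 0.0378% higher and 0.00609% to 0.00631% lower. Without the 5 libraries with muscle transcripts, 12 members were higher in AdC3KO (19.5% of all genes, against 31.0%), where 30 °C keeps 1 library, assumed to vary like the other groups. Upper-quartile scaling gave 9 lower in WT, and DESeq2 called 1 member, Bpgm, higher in AdC3KO at 4 °C. The causes were not tested. Over all genes, upper-quartile scaling gave 3737 higher and 6542 lower in AdC3KO, against 4937 and 5113, and 3640 higher and 6415 lower in WT, against 4879 and 4908.

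Replicate numbers did not pair the libraries: of 19 same-number pairs 1 correlated above 0.1. With the replicate number as a block, the calls of Gpi1 (adjusted p = 0.058) and Pkm (0.056) in AdC3KO and of Fbp2 (0.054) and Ldha (0.11) in WT were lost. The fit of only the groups compared was not run for the interaction, which needs all 4.

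With the longest transcript as gene length, shares in the hexokinase, phosphofructokinase and other families moved by more than 1 SD. Pfkm gave 9.18% of phosphofructokinase in AdC3KO and 8.96% in WT at 4 °C, against 26.5% in AdC3KO and 25.3% in WT at 30 °C. For lactate dehydrogenase the larger form depended on the length used. By merged exons Ldha gave group means of 42.3% to 46.4%, with Ldhb as the rest. By the longest transcript Ldha gave 52.6% to 56.6%. Members below 5 CPM, such as Slc16a3 at 30 °C, are limited by depth.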

Other observations

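At 30 °C the 3 libraries with muscle transcripts (AdC3KO 1 and 2, WT 3) and the other 3 (AdC3KO 3, WT 1 and 2) did not overlap for 11 of 33 members. With muscle transcripts, 7 were lower, among them Aldoa (1205 to 1313 CPM, against 1816 to 1918), Gapdh (823 to 921 CPM, against 1274 to 1418), Eno1 (1257 to 1458 CPM, against 1806 to 2029), Pkm, Ldha, Gpi1 and Slc2a4. The other 4 were higher, namely Pfkfb3 (352 to 459 CPM, against 237 to 272), Pfkm, Slc2a3 and Bpgm. Over all genes 9.64% were higher and 7.62% lower. These sets were drawn from the data and are not groups of the study, and no test was made.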
